A study of Mus musculus with 4 samples.

Results

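To examine how T cells of the choroid plexus (CP) differed from those of the meninges in young mice, the single-cell libraries of these tissues from female C57BL/6 mice at 10 weeks of age were compared. A barcode was kept as a T cell when it held 200 to 7000 genes, no more than 5% mitochondrial UMIs and at least 1 UMI (a counted RNA molecule) of Cd3d, Cd3e or Cd3g, the invariant chains of the T-cell receptor complex. This left 1023 meningeal and 627 CP cells, 1650 of the 4157 T cells and of 4801 barcodes in the series. The study sorted CD4 and CD8 T cells by flow cytometry, after enzyme digestion, from meninges and CP of young and of 18-month-old mice, and made 1 droplet library from each. The animals were untreated, and each library pooled tissue from 5 mice. The meningeal sample took in the outer dorsal meninges and the inner surface of the skull cap. With 1 library a side there was no replicate, so no p-value is given, and tissue and library cannot be told apart.

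Meninges and CP are both borders between blood and brain. The meninges are the membranes that wrap the brain and hold a network of blood and lymphatic vessels, and the CP is the vascular tissue in the ventricles whose epithelium makes cerebrospinal fluid. T cells at these borders range from naive cells, which carry the homing receptor Ccr7 and the transcription factor Lef1, to memory cells that have met antigen and can settle in tissue. Immediate early genes, such as Fos, Jun, Junb and Nr4a1, are transcribed within minutes of receptor signalling or of stress, without new protein synthesis, and their RNA is short-lived.

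The T cells were split by the UMIs of the coreceptors. CD4 cells had Cd4 RNA without Cd8a and Cd8b1, CD8 cells had either of the latter without Cd4, and a large class had none of the 3. The CD4 class made up 260 meningeal cells (25.4%, 95% exact binomial interval 22.8 to 28.2%) and 166 CP cells (26.5%, 23.1 to 30.1%). The CD8 class made up 260 meningeal cells (25.4%, 22.8 to 28.2%) and 167 CP cells (26.6%, 23.2 to 30.3%). The class with neither held 485 meningeal cells (47.4%, 44.3 to 50.5%) and 275 CP cells (43.9%, 39.9 to 47.8%), although the cells had been sorted on these proteins. Cells with UMIs of both coreceptors, 18 and 19, were left out. All intervals here cover counting error only, and those of the tissues overlapped for each class.

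Depth per cell was close in the paired libraries, while the class totals were larger in the meninges. The median T cell had 3207 UMIs in the meninges and 3000 in CP. The CD4, CD8 and neither classes summed to 905793, 1086759 and 1522731 UMIs in the meninges. In CP they summed to 530956, 668897 and 827346 UMIs. The median mitochondrial share was 2.43% in the meninges and 2.95% in CP, and the limit on it removed 61 of 1111 meningeal and 85 of 718 CP barcodes. No barcode was shared between the young libraries. All 12 T-cell markers were detected in every class of both libraries. The 10 neutrophil markers were at 0 throughout, the fibroblast markers summed to 1 to 4 UMIs in a class, and the CP epithelium markers to 0 to 7, other than in CP CD8 cells, where a few cells carried 120. The B-cell and macrophage lists, whose genes include some that T cells also express, summed to 172 to 359 CPM in every class and library. The defining B-cell genes Ms4a1 and Pax5 were at 0 in all of them except the meningeal cells with neither coreceptor. There all 10 B-cell genes had a UMI, 546 UMIs in all, against 4 genes and 206 UMIs in that class of CP. Of the 12 macrophage genes 4 to 10 had a UMI in a class, and Mrc1 was at 0 in all.

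For each class, UMIs were summed over the cells of a library and divided by the class total to give CPM, the usual count per fixed total that makes libraries of different depth comparable. A gene was tested when it had at least 20 UMIs in the library where its level was higher, and it passed the rule of size when its CPM, plus 10, differed by 2-fold or more. The log2 ratios below are CP over meninges on this scale of CPM plus 10, which understates the change of low genes. In such sums, fewer cells that express a gene and less RNA per cell cannot be told apart. The 18-month pair, sequenced from other mice, is given beside the young pair as a second pair of libraries, not as a replicate.

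In CD4 cells 138 of 4676 genes (2.95%) were lower in CP by this rule and 32 (0.684%) were higher. In CD8 cells 86 of 4969 (1.73%) were lower and 47 (0.946%) higher. In cells with neither coreceptor 107 of 6149 (1.74%) were lower and 28 (0.455%) higher. The median log2 ratio over all genes tested was −0.13, −0.07 and −0.11. Many of the higher genes rested on few cells: with at least 10 cells and past the rule without the cell richest in the gene, 17, 17 and 11 genes were higher and 99, 61 and 72 lower. With cells that held a marker UMI of another cell type left out, 28, 61 and 38 genes were higher and 165, 90 and 112 lower. Fewer genes were tested then, 2664, 2678 and 3853. With the larger meningeal totals drawn down to those of CP, 40, 62 and 36 genes were higher and 95, 70 and 92 lower. Here 3762, 4183 and 5062 genes were tested. Of the genes lower in the young pair, 41 of 138 in CD4, 27 of 86 in CD8 and 39 of 107 in neither cells also passed the rule, lower, in the aged pair. Of the higher genes, 0 of 32, 3 of 47 and 7 of 28 passed it there as higher. Counted over all genes, the aged pair had 113, 65 and 88 genes lower by the rule and 17, 31 and 18 higher. The number of genes tested in the aged pair is not given.

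There were 27 genes that were lower in CP by the rule in all 3 classes, and 10 of them stood on a list of immediate early genes. The 27 were AP-1 subunits and their relatives (Fos, Fosl2, Jun and Junb), orphan nuclear receptors induced by receptor signalling (Nr4a1 and Nr4a3), phosphatases that turn off MAP kinases (Dusp1 and Dusp5), brakes on NF-kB (Nfkbia, Nfkbid and Tnfaip3), regulators of mRNA decay (Zfp36, Btg2), stress-response genes (Gadd45b, Ppp1r15a, the co-chaperone Dnajb1), and Ier2, Csrnp1, Sertad1, Tgif1, Phlda1, Rhob, Rgs1, Pnrc1, Vps37b, Ctla4 and the non-coding Gm26532. Their median log2 ratio was −2.02 in CD4, −1.63 in CD8 and −1.72 in neither cells. The 3 classes came from the same 2 libraries, so they are not separate measurements of the tissues. In the aged pair all 27 had ratios below 0 in every class, and 22 passed the rule in all 3 classes. Over all genes 113, 65 and 88 were lower by the rule in that pair in CD4, CD8 and neither cells. These are counts without the number of genes tested in that pair, and so are not shares. The share of all genes with a ratio below 0 there was not computed.

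The promoters of the 4 of these genes with the lowest mean ratio over the classes are shown as a description of their sequence. Each is the 250 bases before the annotated start, read on the gene's strand from RefSeq on GRCm38.p6, with TGACG, the core of the cAMP response element, or its reverse complement CGTCA in capitals. The windows were chr8:84978749-84978998 on the minus strand for Junb, chr15:101266596-101266845 on the plus strand for Nr4a1, chr12:85473640-85473889 on the plus strand for Fos and chr17:26508473-26508722 on the minus strand for Dusp1.
Junb: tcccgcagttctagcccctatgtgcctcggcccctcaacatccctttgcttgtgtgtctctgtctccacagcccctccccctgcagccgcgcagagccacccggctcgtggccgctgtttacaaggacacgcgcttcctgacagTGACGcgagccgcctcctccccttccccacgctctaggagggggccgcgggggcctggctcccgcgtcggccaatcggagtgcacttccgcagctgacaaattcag
Nr4a1: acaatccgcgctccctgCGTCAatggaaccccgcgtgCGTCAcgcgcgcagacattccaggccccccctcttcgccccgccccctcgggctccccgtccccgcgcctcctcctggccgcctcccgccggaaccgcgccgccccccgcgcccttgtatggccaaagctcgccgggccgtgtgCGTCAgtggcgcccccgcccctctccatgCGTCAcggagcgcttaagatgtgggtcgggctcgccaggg
Fos: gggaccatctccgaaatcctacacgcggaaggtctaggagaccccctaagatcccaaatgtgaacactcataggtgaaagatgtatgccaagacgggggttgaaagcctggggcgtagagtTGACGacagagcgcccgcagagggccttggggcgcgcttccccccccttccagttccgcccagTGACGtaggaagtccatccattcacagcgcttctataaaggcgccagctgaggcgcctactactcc
Dusp1: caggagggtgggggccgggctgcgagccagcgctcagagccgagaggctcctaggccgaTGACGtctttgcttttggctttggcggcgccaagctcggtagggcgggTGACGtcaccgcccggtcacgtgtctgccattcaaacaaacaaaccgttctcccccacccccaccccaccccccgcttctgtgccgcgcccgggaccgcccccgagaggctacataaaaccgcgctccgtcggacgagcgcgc
Of the 27 genes 22 were matched to a promoter, and 12 of them (54.5%) held TGACG on either strand, against 5808 of 32536 mouse promoters of this length (17.9%). The full palindrome TGACGTCA, which contains TGACG, was in 4 of the 22 and in 1.56% of all promoters, and the AP-1 motif TGANTCA in 2 of the 22 and in 6.73% of all. Of the other motifs searched on both strands, that of NF-kB was in 6 of the 22 (27.3%) and 5.96% of all, the heat shock element GAANNTTC in 5 (22.7%) and 6.72%, the EGR motif GCGGGGGCG in 3 (13.6%) and 2.60%, and the CArG box of serum response factor in 2 (9.09%) and 1.48%. A gene with several promoters counted when any of them held the motif, whereas the share of all promoters counted each promoter singly. This difference in counting raises the shares of the genes. The share among promoters of genes tested in these cells was not computed. A match is a description of the sequence, not of a factor's binding.

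Junb, a subunit of the transcription factor AP-1, had the lowest ratio of the immediate early genes in every class. In CD4 cells it was at 1908 CPM in the meninges (95% exact Poisson interval 1819 to 2000) and at 143 CPM in CP (113 to 179), a log2 ratio of −3.65. In CD8 cells it was at 949.6 CPM in the meninges and 74.7 CPM in CP (−3.50), and in neither cells at 1749 and 132 CPM (−3.63). The intervals of the tissues did not overlap in any class, and the level in CP was 12.7 to 13.3 times lower. A Junb UMI was found in 66.0% of meningeal CD4 cells and 11.5% of CP CD4 cells after each cell was thinned to 1000 UMIs. The sort held no cell type that lacks Junb from which a background share could be taken.

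Its partner Fos was at 161, 130 and 155 CPM in meningeal CD4, CD8 and neither cells, and at 15.1, 4.49 and 19.3 CPM in CP, on 8, 3 and 16 UMIs. Jun was at 179, 145 and 243 CPM in the meninges against 35.8, 16.4 and 27.8 CPM in CP, with log2 ratios of −2.04, −2.55 and −2.74. Each of these AP-1 genes was therefore several-fold lower in CP, on far more UMIs in the meninges than in CP. Nr4a1, a nuclear receptor used as a readout of T-cell receptor signalling, was at 168, 52.4 and 135 CPM in the meninges, and in CP only 4, 1 and 5 UMIs were counted. Its log2 ratios were −3.34, −2.44 and −3.17. Nr4a3, its relative, was at 32.0 CPM in meningeal CD4 and 26.7 CPM in meningeal CD8 cells, and had no UMI in CP in either class, which makes it at least 5.67-fold and 5.95-fold lower against a floor of 3 counts. Ier2 was at 506, 526 and 531 CPM in the meninges and at 134, 86.7 and 112 CPM in CP. Dusp1, which dephosphorylates MAP kinases, was at 255, 142 and 246 CPM in the meninges and at 26.4, 11.96 and 29.0 CPM in CP.

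**Figure D1:**
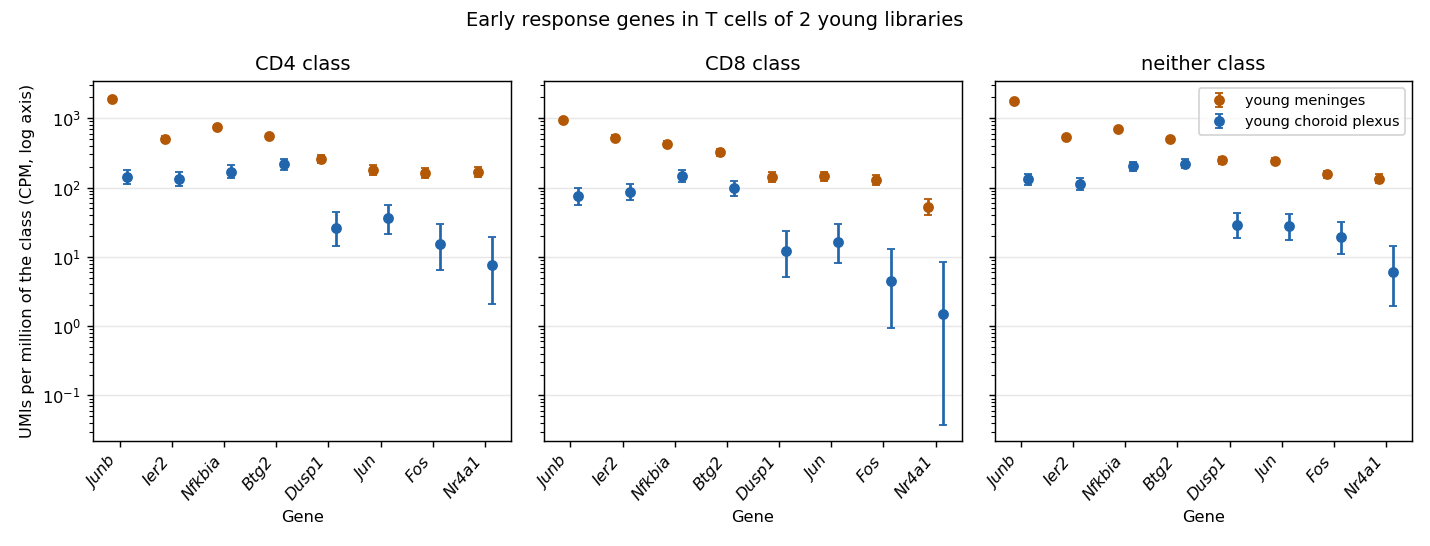
Levels of 8 early response genes in CPM of the class (log axis) in young meninges and young CP, 1 panel per class, with 95% exact Poisson intervals as bars. For each gene the CP point lies below the meningeal point in every class, as for Junb at 143 against 1908 CPM in CD4 cells.

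Of a list of 20 immediate early genes, 15 were tested in CD4, 14 in CD8 and 15 in neither cells. By the rule 11, 10 and 11 of them were lower in CP, where 2.95%, 1.73% and 1.74% of all genes were, and none was higher, with list medians of −1.68, −1.75 and −1.73 beside −0.13, −0.07 and −0.11 over all genes tested. The list was not uniform. Myc, which drives growth and division, had ratios of 0.45, 0.30 and −0.13, and Jund, a more steadily expressed AP-1 subunit, had −0.61, −0.13 and −0.50, none past the rule. Dusp2 at −0.96, −0.91 and −0.73 also stayed within it. In the aged pair 12 of 16, 11 of 16 and 14 of 18 tested members were lower by the rule, with medians of −1.36, −1.65 and −1.73. Counted over all genes, 113, 65 and 88 were lower in that pair. The number of all genes tested there is not given, so these counts are not shares.

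Of 14 genes on a list of NF-kB feedback, 5 of 14 tested were lower in CD4, 4 of 12 in CD8 and 8 of 14 in neither cells, with medians of −0.81, −0.76 and −1.05, where 2.95%, 1.73% and 1.74% of all genes were lower. The 8 in neither cells took in Nfkbia, Nfkbid, Nfkbiz and Tnfaip3, the subunit gene Nfkb2, the activation marker Cd83 and the RNA-binding proteins Zfp36l1 and Zfp36l2. Nfkbia, the inhibitor that holds NF-kB in the cytoplasm, was at 751, 425 and 688 CPM in the meninges and at 170, 148 and 203 CPM in CP. Tnfaip3, the ubiquitin-editing enzyme A20, was at 166, 131 and 187 CPM in the meninges and at 16.95, 8.97 and 32.6 CPM in CP. Nfkb1, a subunit of NF-kB itself, had ratios above 0 in every class and none past the rule. Of 16 heat shock genes 3 of 14, 2 of 13 and 1 of 14 tested were lower, again beside 2.95%, 1.73% and 1.74% of all genes. Dnajb1 was the member lower in all classes, at 171, 137 and 167 CPM in the meninges and 73.5, 55.3 and 77.4 CPM in CP. Hspa1a and Hspa1b, the inducible HSP70 genes, were lower in CD4 cells (−1.95 and −1.85), but they are near-identical copies whose UMIs cannot be assigned with certainty. Hspa8, the constitutive member, had ratios of −0.76, −0.72 and −0.77, within the rule.

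**Figure D2:**
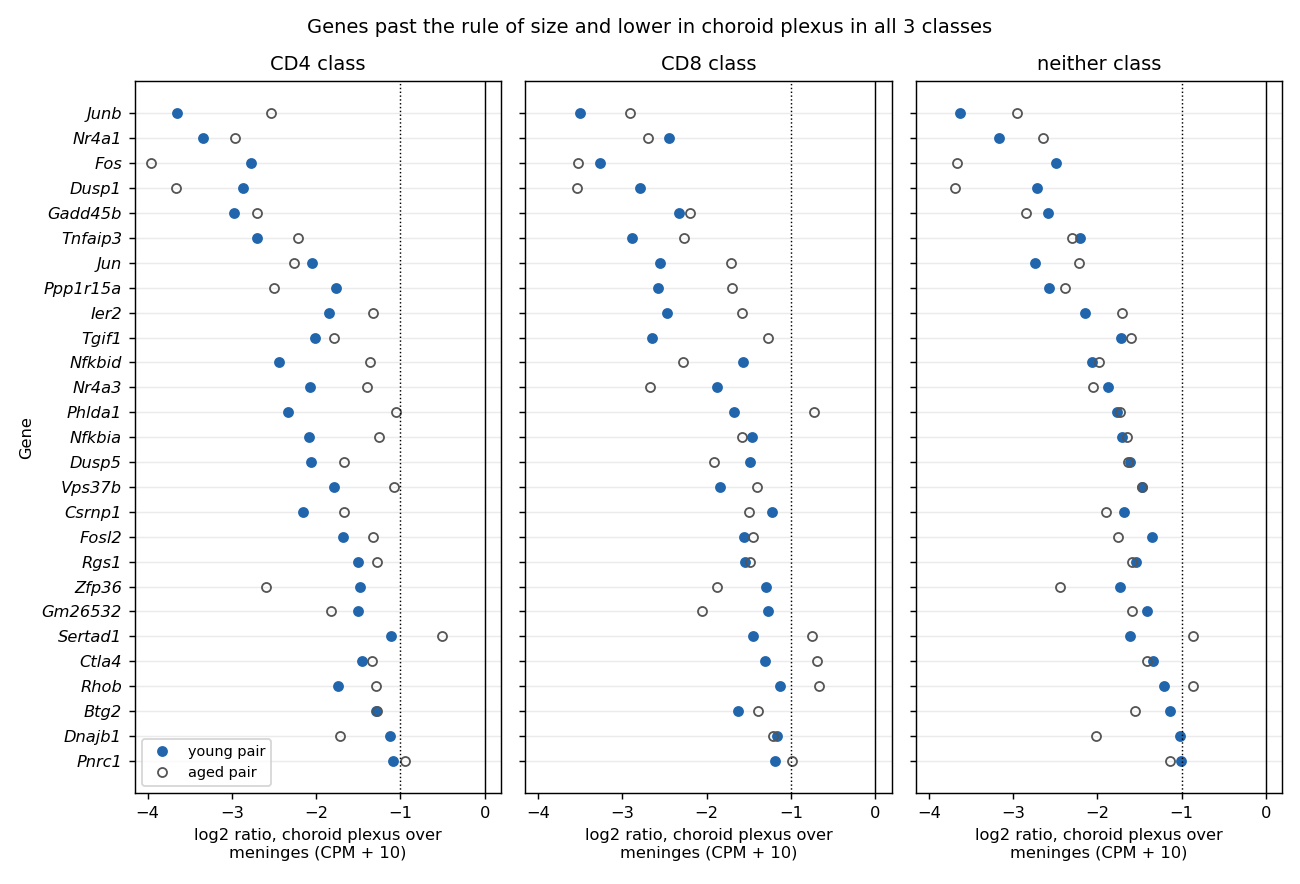
Log2 ratios of CPM plus 10, CP over meninges, for the 27 genes lower in CP by the rule in all 3 classes, 1 panel per class, with filled points for the young pair and open points for the aged pair. All points lie below 0, and the dotted line at −1 is the 2-fold threshold.

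To see whether these differences came from few cells, the immediate early UMIs were summed per cell after thinning to 1000 UMIs. The median meningeal cell had 4 such UMIs in CD4, 3 in CD8 and 3.5 in neither cells, and the median CP cell had 1 in each class. Cells with none made up 7.72%, 11.9% and 8.16% of the meningeal classes and 35.8%, 49.4% and 33.7% of the CP classes. The shift of this summed list was thus seen across the cells of a class rather than in a small group of them. Genes with most UMIs weigh most in the sum, and the part of free RNA in it was not tested. In the aged pair the medians of the sum were 5, 3 and 5 in the meninges and 1 in each class in CP. For the NF-kB feedback list the median cell of the young pair had 1 UMI in each meningeal class. In CP it had 0, 0 and 1. The largest share of a gene's UMIs that 1 cell held, over the 27 genes, was 35.0% in CD4, 15.0% in CD8 and 13.3% in neither cells.

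**Figure D3:**
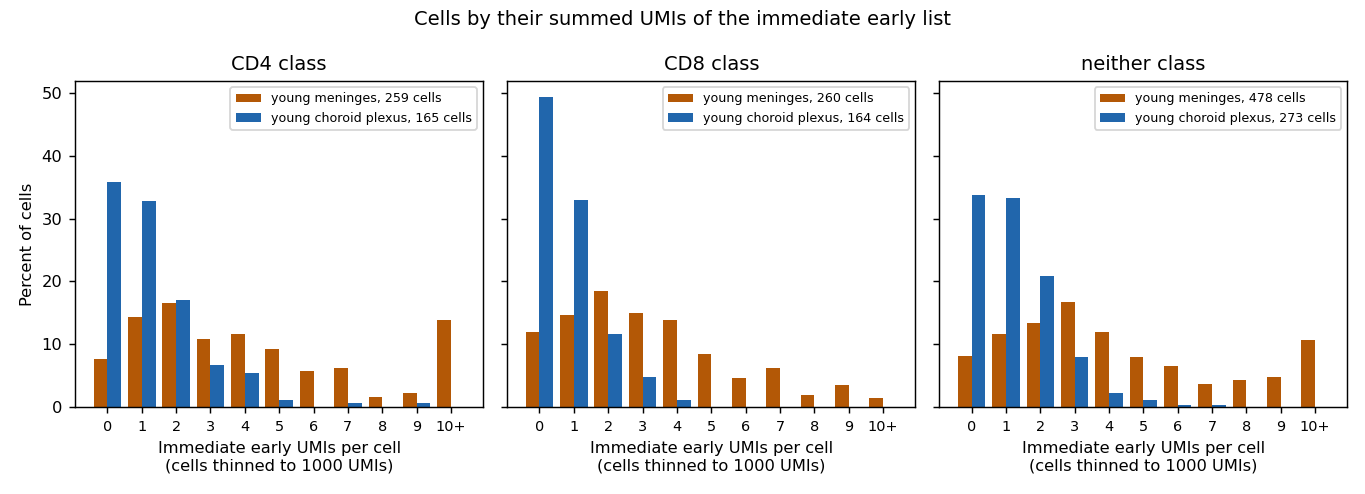
Percent of cells by their summed UMIs of the immediate early list after thinning to 1000 UMIs per cell, for young meninges and young CP, 1 panel per class; the last bin holds cells with 10 or more. The CP bars are tallest at 0 or 1 UMI, and the meningeal bars reach further to the right.

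The classes were next divided by cell state. A cell was gated as naive when it had a Ccr7 or Lef1 UMI and none of Ccl5, S100a4 or Cxcr6, and as memory in the reverse case. In thinned cells the naive gate held 47.9% of meningeal CD4 cells (41.7 to 54.1%) and 52.7% of CP CD4 cells (44.8 to 60.5%), and the memory gate 21.6% (16.8 to 27.1%) and 13.3% (8.55 to 19.5%). The CD4 intervals of the tissues overlapped in both gates. In CD8 cells the naive gate held 41.2% of meningeal cells (35.1 to 47.4%) and 32.9% of CP cells (25.8 to 40.7%), which overlapped too. The CD8 memory gate held 56 of 260 meningeal cells (21.5%, 16.7 to 27.0%) and 61 of 164 CP cells (37.2%, 29.8 to 45.1%). These intervals did not overlap. Without thinning the CD8 memory shares were 12.7% and 29.9%. The CD8 memory gate of the aged pair held 87.2% in both tissues. A single stray UMI can place a cell in or out of a gate, and the part of free RNA in these shares was not tested.

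**Figure D4:**
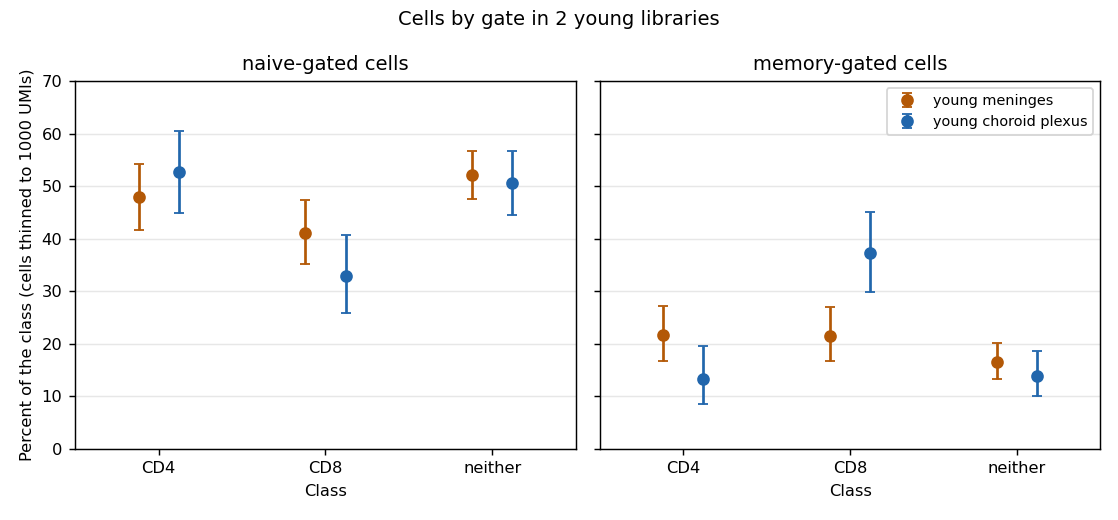
Percent of each class that fell in the naive gate (left) and the memory gate (right) after thinning to 1000 UMIs per cell, with 95% exact binomial intervals, for young meninges and young CP. The memory gate of CD8 cells stands at 37.2% in CP and 21.5% in the meninges.

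The lower early genes were seen within both gates. For the levels within a gate the cells were gated on all their UMIs, without thinning, so the gates differ from those of the shares above. In naive-gated cells 7 of 11, 8 of 11 and 9 of 12 tested immediate early genes were lower in CP in CD4, CD8 and neither cells, and none was higher. Of all genes tested there 2.76%, 5.09% and 2.16% were lower and 0.93%, 0.918% and 0.352% higher. In memory-gated cells 8 of 10, 4 of 5 and 8 of 12 were lower and none higher. Of all genes tested there 13.3%, 3.8% and 8.93% were lower and 0.855%, 6.15% and 2.92% higher. These memory-gated cells summed to 191505, 110054 and 271704 UMIs in the meninges and to 76129, 193331 and 139368 in CP. The larger total was thus in CP in CD8 cells only. A gene reaches the minimum of UMIs more easily in the larger total, and the gates were not drawn down to equal totals. The part of the totals in these shares was not tested. Junb was at 1643 CPM in naive-gated meningeal CD4 cells and 133 CPM in those of CP, and at 2512 and 118 CPM in memory-gated ones. In CD8 cells it was at 1028 against 75.4 CPM in the naive gate and at 872 against 46.6 CPM in the memory gate. An exception was Nfkbia in memory-gated CD8 cells, at 191 CPM in the meninges and 140 CPM in CP, a log2 ratio of −0.42 within the rule. Over the classes the naive gates held 68 to 320 cells of a library and the memory gates 21 to 82.

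Several genes of memory CD8 cells were higher in CP. Of 20 memory and effector surface genes 19 were tested in CD8 cells, 4 were higher in CP by the rule (among them S100a4, S100a6 and Id2) and none lower, where 0.946% of all genes were higher, with a median of 0.51 and 16 of 19 above 0. S100a6, a calcium-binding protein gene of memory cells, was at 333 CPM in meningeal CD8 cells (300 to 369) and at 1106 CPM in CP (1028 to 1189). S100a4, its relative, was at 88.3 and 286 CPM, and Id2, a transcriptional regulator that favours effector fates, at 98.5 and 221 CPM. S100a4 also served in the memory gate, so its level and the gate shares are not separate readings.

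Among tissue residency genes, Itga1, the collagen-binding integrin CD49a, was higher in CP CD8 cells at 46.3 CPM against 6.44 CPM in the meninges. Xcl1, a chemokine that draws dendritic cells, was higher at 259 against 60.7 CPM, but 1 CP cell held 36.4% of its UMIs, and the ratio was 1.93 with that cell and 1.32 without it. Itgae, the integrin CD103 of resident CD8 cells, was at 44.2 CPM in the meninges and 17.9 CPM in CP, within the rule. Cxcr6, a chemokine receptor of resident memory cells, was at 142 and 283 CPM (0.95), also within it. Rgs1, which dampens chemokine receptor signalling, was lower in CP in all classes (128 against 37.4 CPM in CD8 cells). Over the list 2 genes were higher and 1 lower of 13 tested in CD8 cells, where 0.946% and 1.73% of all genes were. The list median was −0.32, so its members did not move one way.

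Other genes higher in CP CD8 cells were Ly6c1, a surface antigen of lymphocytes (13.8 CPM in the meninges and 64.3 CPM in CP), Mir142hg, the host gene of a microRNA of blood cells (11.04 and 82.2 CPM), and the signalling adaptors Fcer1g (25.8 and 82.2 CPM) and Tyrobp (12.9 and 49.3 CPM). Within the gates Ly6c1 was higher in naive-gated CD8 cells, at 8 against 28 UMIs, and had no UMI in memory-gated ones. Ly6c1 has the near-identical neighbour Ly6c2, which was within the rule in CD8 cells (−0.44), and their reads may be split. Fcer1g and Tyrobp stand on the natural killer marker list, which summed to 89 UMIs (81.9 CPM) in meningeal and 134 UMIs (200 CPM) in CP CD8 cells. All 8 of its genes had a UMI in the meninges and 7 in CP, and their part in the CD8 difference was not tested. Mir142hg and Fcer1g were higher by the rule in the aged pair too (1.10 and 1.18).

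Within CD8 cells memory-gated without thinning, 33 in the meninges and 50 in CP, the memory list no longer stood on one side. There 1 of 16 tested members was higher, S100a6 at 1327 against 2891 CPM, and the median was −0.04. Of all genes tested in that gate 6.15% were higher, on totals of 110054 UMIs in the meninges and 193331 in CP. Id2 was at 391 and 548 CPM, within the rule, and Itga1 at 54.5 and 98.3 CPM, on 6 and 19 UMIs and so too few to be tested. Xcl1 stayed higher, at 336 and 807 CPM. The CP cell richest in Xcl1 was not left out here, and how far the ratio in the gate rests on it was not tested. In naive-gated CD8 cells S100a6 had 1 UMI in the meninges and 4 in CP. The homing and quiescence genes showed no call in any class: Ccr7 had ratios of −0.40, −0.86 and −0.61 and Lef1 0.25, −0.14 and 0.18, and the list medians were 0.06, −0.14 and −0.12.

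In CD4 cells some effector and regulatory genes were lower in CP. Of the memory and effector surface list 3 of 18 tested were lower (median −0.31), of the regulatory list 3 of 7 (−0.69), and of the cytotoxic and effector list 6 of 10 (−1.28), where 2.95% of all genes were lower, and none of these lists had a higher gene. Several of the latter rested on 1 cell, since a single meningeal cell held 100% of the Ccl3 UMIs and a single cell 95.9% of the Ccl4 UMIs, without which the ratio of Ccl4 stood at 0.20. Tnfrsf4, the costimulatory receptor OX40 of activated and regulatory cells, was at 107 CPM in the meninges and 20.7 CPM in CP. The inhibitory receptor gene Pdcd1 was at 45.3 and 11.3 CPM and Ctla4, another, at 43.1 and 9.42 CPM. Tigit was at 38.6 and 3.77 CPM, on 35 and 2 UMIs, 10.3 times lower with a log2 interval for the ratio of −6.46 to −1.40 before the 10 CPM were added.

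More genes of differentiated CD4 cells went the same way. Rora, a transcription factor of several effector fates, was at 62.9 CPM in the meninges and 9.42 CPM in CP. Il2rb, the interleukin receptor chain that responds to IL-2 and IL-15, was at 201 and 94.2 CPM, and Tnfsf11, the cytokine RANKL, at 47.5 and 5.65 CPM. In thinned cells the memory gate held 13.3% of CP and 21.6% of meningeal CD4 cells, with overlapping intervals. The part of that share in these genes was not tested. Without thinning the memory gate held 52 meningeal and 21 CP cells. There Tnfrsf4, at 36 against 1 UMIs, and Rora, at 21 against 2, were lower by the rule. In that gate 156 of all 1170 genes tested (13.3%) were lower, on totals of 191505 UMIs in the meninges and 76129 in CP. Il2rb (−0.84) was within it, and Pdcd1, Tigit and Tnfsf11 had too few UMIs to be tested. In the aged pair Tnfrsf4 stood at 369 CPM in meningeal and 389 CPM in CP CD4 cells, and the ratios of Tigit, Pdcd1, Rora and Tnfsf11 were all within the rule. Ctla4 was lower there as well (−1.34).

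In neither cells 5 of 9 tested regulatory genes were lower in CP, where 1.74% of all genes were, with a median of −1.28 in the young pair and −0.02 in the aged pair. Tigit was at 36.8 CPM in the meninges and 1.21 CPM in CP, and Ikzf2, the regulatory transcription factor Helios, at 62.4 and 15.7 CPM. Tnfrsf9, a costimulatory receptor of activated cells, was at 26.9 CPM in the meninges and had no UMI in CP, at least 7.43-fold lower. Foxp3, which defines regulatory cells, was at 28.9 and 13.3 CPM, on 44 and 11 UMIs, and had a ratio of −0.74 within the rule. Klrb1c, a receptor of natural killer and NKT cells, was lower at 36.8 against 3.63 CPM. The natural killer markers summed in this class to 66 UMIs in the meninges (43.3 CPM, 5 of 8 genes) and 7 in CP (8.46 CPM, 2 of 8). Of the B-cell list 3 genes were tested in neither cells, and 2 of them, Cd74 and Igkc, were lower in CP, with a median of −1.38. In CD4 cells Cd74 was higher by the rule, but stood at −0.75 without its richest cell. The part of either marker list in the difference was not tested.

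**Figure D5:**
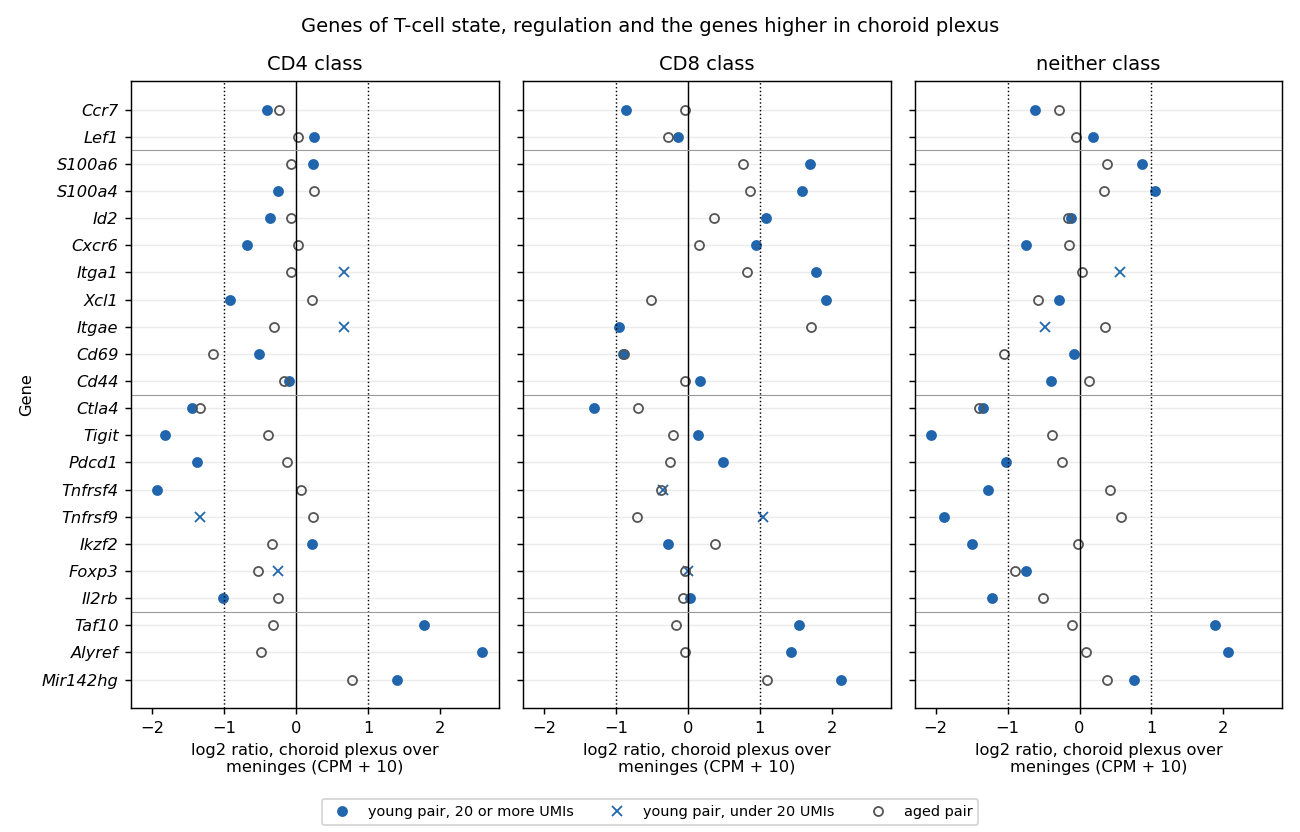
Log2 ratios of CPM plus 10, CP over meninges, for genes of cell state and regulation and genes higher in CP, 1 panel per class, with filled points for the young pair, crosses where the young pair had under 20 UMIs, and open points for the aged pair. S100a6 lies at 1.70 in CD8 cells of the young pair, and Taf10 and Alyref lie above 0 in the young pair in every class. In CD4, CD8 and neither cells of the aged pair Taf10 lies at −0.32, −0.17 and −0.10. Alyref lies there at −0.49, −0.04 and 0.08.

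Only 5 genes were higher in CP by the rule in all 3 classes: Taf10, Alyref, Top2a, the histone gene Hist1h2ap and CAAA01147332.1. Taf10, a subunit of the general transcription factor TFIID, was at 65.1, 79.1 and 70.3 CPM in meningeal CD4, CD8 and neither cells and at 248.6, 249.7 and 286 CPM in CP. Alyref, an adaptor for mRNA export, was at 15.5, 31.3 and 21.7 CPM in the meninges and at 143, 102 and 122 CPM in CP. In the aged pair Taf10 lay between 242 and 336 CPM and Alyref between 115 and 166 CPM in all classes of both tissues, so for these genes the young meningeal library stood apart from the other 3. Neither gene was called in the aged pair, where Taf10 had ratios of −0.32, −0.17 and −0.10 and Alyref −0.49, −0.04 and 0.08.

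Top2a, which untangles DNA in dividing cells, was at 18.8, 18.4 and 8.54 CPM in the meninges and at 56.5, 49.3 and 49.6 CPM in CP. Hist1h2ap, a replication-dependent histone gene, was at 230, 269 and 57.8 CPM in the meninges and at 475, 671 and 448 CPM in CP, where 1 cell held 77.4%, 53.0% and 62.3% of its UMIs. Without the richest cell its ratio was −1.01 in CD4, 0.26 in CD8 and 1.42 in neither cells, so it passed the rule as higher only in the last. Of 20 cell cycle genes 1, 1 and 5 were higher in CD4, CD8 and neither cells, of 10, 12 and 11 tested. In CD4 cells 1 member, Ube2c, was lower. Of all genes tested 0.684%, 0.946% and 0.455% were higher, and 2.95% were lower in CD4 cells. Stmn1, 1 of the 5 in neither cells, stood at −0.00799 after thinning and −0.38 in naive-gated cells. Cells with UMIs of at least 2 of 6 core cycle genes after thinning were rare, 3 of 1015 in the meninges (0.296%, 0.0610 to 0.861%) and 9 of 621 in CP (1.45%, 0.665 to 2.73%). The intervals overlapped. The aged libraries had 13 of 1370 (0.949%) and 24 of 1078 such cells (2.23%).

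Several programmes showed few or no calls. None of 14 tested genes of MHC class I presentation and none of 13 tested glycolysis and hypoxia genes passed the rule in any class, though the glycolysis medians lay at −0.54, −0.31 and −0.27. Of 19, 21 and 21 tested interferon-stimulated genes 1 was lower in CD4 and 1 higher in CD8 cells. Of all genes tested 2.95% were lower in CD4 and 0.946% higher in CD8 cells. None of the mitochondrial or ribosomal protein genes passed the rule, with mitochondrial medians of 0.33, 0.19 and 0.28 and ribosomal medians of 0.10, −0.00 and 0.08. Ttr, the transport protein that CP epithelium secretes, had no UMI in the meninges in any class, and 2, 103 and 3 UMIs in CP CD4, CD8 and neither cells. The 103 UMIs lay in 4 CD8 cells, 1 of which held 97.1% of them. In neither cells the erythroid markers summed to 486 CPM in the meninges and 8.46 CPM in CP, again mostly from 1 cell. Haemoglobin genes had more UMIs in the meninges in every class. They had 23, 14 and 728 UMIs in meningeal CD4, CD8 and neither cells and 2, 0 and 1 in CP. An erythroid marker UMI was found in 11.2%, 10.8% and 7.42% of the meningeal classes and 4.82%, 5.39% and 2.55% of those of CP. The aged pair had 78, 409 and 807 haemoglobin UMIs in the meninges and 2, 3 and 1 in CP.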

How the data were processed

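The deposited files hold counts of UMIs per gene and barcode for each library, over 31053 genes, as the authors made them with Cell Ranger. The matrix headers name version 3.1.0, and the submitters' processing notes name version 5.1.0, STAR and mm10. Counts were read with numpy 2.4.6 in Python 3.11.15 and summed per class and library. Intervals came from scipy 1.17.1. A gene was named when it was among the 10 highest or 10 lowest ratios of a class, past the rule of size and in at least 10 cells of the higher library, when it passed in all 3 classes, when it was a list member past the rule, or when it was one of 11 fixed markers of T-cell state and of CP epithelium; receptor, immunoglobulin, mitochondrial, ribosomal and haemoglobin genes were set aside from the ranking. Genes that were not of these but belong to a list were named after their values were seen. The study removed doublets with DoubletFinder. Here Scrublet, run in scanpy 1.11.5, served in an alternative only, where it marked 16 meningeal and 22 CP cells. The comparison, classes and gene lists were chosen with earlier results of these data known. Thinning drew 1000 UMIs per cell without replacement, leaving out shallower cells. Promoter sequences are from RefSeq. The scripts were tested on simulated data. Some genes are not reported here.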

Additional observations from a re-analysis of the deposited data

Results flagged for a closer look

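The tissue ratio of 6 genes lay past 2-fold in opposite directions in the young and the aged pair. The difference between the pairs was not tested, since each pair is 1 library a side. In CD4 cells Trbv17, a receptor segment, had a log2 ratio of 1.04 in the young and −2.41 in the aged pair, on 51 and 67 young UMIs from 6 cells in each tissue. The chemokine gene Ccl1 had −5.65 and 3.84, and 94.4% of its 446 meningeal UMIs came from 1 cell. Hist1h2ap had 1.02 and −1.02 in CD4 cells, and 1 cell held 77.4% of its UMIs in young CP. In CD8 cells Ifit1, an interferon-induced gene, had 1.06 and −1.02. In neither cells Penk, the enkephalin precursor, had −1.29 on 22 and 0 UMIs and 1.91 in the aged pair. The 22 UMIs lay in 4 meningeal cells, 1 of which held 77.3% of them. Tmem176a had −1.09 on 25 and 2 UMIs in neither cells and 1.07 in the aged pair.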

How the results depend on the processing

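The median of the immediate early list stayed below 0 in every class under all alternatives that gave a value (−2.72 to −1.23 in CD4, −2.83 to −1.31 in CD8, −2.23 to −1.14 in neither cells). The numbers of genes past the rule moved more. Counts are given as higher and lower in CP. With a pseudocount of 1 CPM they were 57 and 285 in CD4, 97 and 237 in CD8, and 62 and 327 in neither cells; with 25 CPM they were 8 and 51, 18 and 30, and 12 and 40. With at least 50 UMIs they were 11 and 51 in CD4 and 17 and 36 in CD8, with 12 higher in neither cells. With no minimum of UMIs 70, 73 and 49 were higher. Scaling without mitochondrial, ribosomal, receptor and haemoglobin genes gave 49 higher in CD4 and 140 lower in CD8. A mean over cells gave 16 higher in neither cells, and thinning gave 19, 18 and 17 higher. Calling a class from at least 2 UMIs gave 20 and 210 in CD4, of 1730 genes tested. Leaving out the cell richest in each gene gave 18, 17 and 14 higher, and asking for 10 cells as well, an alternative added after the data were seen, 17, 17 and 11. Naive-gated cells gave 83 lower in CD4 and 22 and 16 higher in CD8 and neither cells, and memory-gated cells 10 higher in CD4, 42 lower in CD8 and 52 higher in neither cells. Drawing the deeper side down to the shallower total, also added later, gave 40 and 95, 62 and 70, and 36 and 92. The share of higher among all calls thus went from 18.8, 35.3 and 20.7% to 29.6, 47.0 and 28.1%. The number of genes tested in CD4, CD8 and neither cells changed as well. It was 2098, 2270 and 3259 with at least 50 UMIs and 11953, 12062 and 12390 with no minimum. After thinning it was 1630, 1454 and 2788. Naive-gated cells had 3012, 2397 and 4543 genes tested and memory-gated cells 1170, 1105 and 1781.

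After thinning, the CD4, CD8 and neither classes held 9.75, 19.6 and 70.3% of meningeal and 10.95, 19.6 and 68.8% of CP cells. Without thinning the naive gate held 61.5, 52.3 and 66.0% of the meningeal and 73.5, 40.7 and 72.4% of the CP classes, and the memory gate 12.7% of meningeal and 29.9% of CP CD8 cells. On Ccr7 alone the naive shares of the classes were 31.7, 30.4 and 34.7% among meningeal cells, 37.0, 22.6 and 28.2% among CP cells.

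Of 5253 values of named genes under the alternatives 5083 shifted within the counting interval of the ratio, 161 moved further and 9 changed sign. A change of sign was scored only for genes past the rule. The 5083 took in genes without a UMI in a library, whose shift was not measured. The 5253 left out values of genes that were no longer tested under an alternative. These were 161 after thinning, 151 in naive-gated cells, 154 in memory-gated cells and 101 without the cells with another type's marker. In memory-gated cells 60 of 191 values moved further. Each alternative on the minimum of UMIs, with 357 values, leaves the ratios unchanged. Of 42 list medians, each for a list in a class, 13 changed sign under at least 1 alternative, among them the CD8 memory list, which ranged from −0.20 to 0.59. In CD4 cells Hist1h2ap stood at −0.28 with classes called from at least 2 UMIs, −1.01 without its richest cell and −0.41 in memory-gated cells. Without the richest cell Ccl4 stood at 0.20, Cd74 at −0.75 and Csf2 at 0.10 in CD4 cells and Gzma at −0.17 in neither cells. In neither cells Stmn1 stood at −0.00799 after thinning and −0.38 in naive-gated cells. The causes were not tested, other than where a single cell held most of the UMIs. No paired analysis was possible because each group held 1 library.

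The main limit was the single pooled library on each side. Genes near 20 UMIs rest on few molecules, and a difference under 2-fold was not called. Ratios between tissues include whatever differed between the libraries besides the tissue.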

Other observations

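T-cell receptor genes were set aside from the ranking of genes. Of 28 tested in CD4 cells 2 were higher and 3 lower in CP, and of 29 in CD8 cells 2 and 6. Of 40 tested in neither cells none was higher and 5 were lower. Over all genes tested 0.684%, 0.946% and 0.455% were higher in the CD4, CD8 and neither classes. The shares of lower genes were 2.95%, 1.73% and 1.74%.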
